A study of Populus cathayana with 4 samples.

Results

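Light-harvesting antenna genes and the gene of plastocyanin were followed in leaf RNA of the dioecious poplar Populus cathayana. The genes followed are 5 of the 19100 rows of the deposited table, and each row is called a gene here. Their names, Lhcb1 (Potri.005G239200.2), Lhcb2 (Potri.014G165100.1), Lhcb4 (Potri.006G099500.1), Lhca4 (Potri.015G062200.1) and plastocyanin (Potri.005G246100.1), are those of the best database hit given for the row. They were selected on this description and on their counts scaled to library totals, with all 4 libraries in view, so their values are descriptions and no test was made on them.

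The libraries came from females under ambient solar UV-B, females under decreased solar UV-B, males under ambient solar UV-B and males under decreased solar UV-B. All plants were potted cuttings kept in a greenhouse and treated for 100 days over one growing season, and the fourth fully expanded leaves were sampled. Each group had 1 library, made from RNA of 9 plants pooled in equal parts, so no value has a replicate error and plants cannot be told apart within a pool. Every library ran on its own flow cell lane, so lane and group cannot be told apart. The study asked how each sex differs in its transcripts between the UV-B levels.

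Light-harvesting proteins bind chlorophylls and carotenoids in the thylakoid membrane of the chloroplast and pass excitation energy to the photosystems. Lhcb1 and Lhcb2 form the mobile trimers of photosystem II, Lhcb4 is a monomeric antenna protein that joins those trimers to the photosystem II core, and Lhca4 belongs to the antenna belt of photosystem I. Plastocyanin is a small copper protein of the thylakoid lumen that carries electrons to photosystem I from the cytochrome complex that precedes it. All 5 are encoded in the nucleus, some of them by several gene copies, and their transcripts are abundant in green leaves and respond to light.

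Transcripts were counted through a 17 bp tag next to their last site for a restriction enzyme. A transcript gives 1 tag whatever its length, so levels need no length scale. Levels are CPM, counts per 1000000 tags of the library total that the table states, and these totals lay between 4.21 and 4.39 times 1000000 tags. The listed rows held 624926 to 722533 tags, or 14.4% to 17.2% of the totals, most in males under ambient UV-B. No row has a count of 1, so a listed 0 can stand for 0 or 1 tag. Intervals in brackets are exact 95% intervals and cover counting error only, since tags were copied by PCR and pools were not repeated. A change of at least 2-fold in CPM is used as a mark of size, not as a test. The 4 lists of tissue markers said little on the leaf label. No row was described as rubisco activase, and the leaf list held 3 rows, 2 of them for the large rubisco subunit, with 30.2 to 145 CPM in sum. The phloem list held 2 rows with 0 to 3 counts per library in sum.

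Lhcb1 had 102 CPM (93.1 to 112) in females under ambient UV-B and 205 CPM (192 to 219) in females under decreased UV-B, from 443 and 900 counts. It had 222 CPM (208 to 237) in males under ambient UV-B and 285 CPM (269 to 301) in males under decreased UV-B, from 936 and 1219 counts. The level was lowest in females under ambient UV-B and highest in males under decreased UV-B. The middle pair of libraries, males under ambient UV-B and females under decreased UV-B, had overlapping intervals. The log2 ratio of ambient over decreased UV-B was -1.0 (-1.17 to -0.83) in females, just past 2-fold, and -0.36 (-0.48 to -0.23) in males.

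Lhcb2 was level in 3 libraries and low in the fourth. It had 20.6 CPM (16.5 to 25.3) in females under ambient UV-B against 42.8 CPM (36.9 to 49.4) in females under decreased UV-B, from 89 and 188 counts. Males had 43.3 CPM (37.2 to 50.02) under ambient UV-B and 42.0 CPM (36.1 to 48.6) under decreased UV-B, from 182 and 180 counts. The intervals of the 3 higher libraries overlapped from one to the next, and that of females under ambient UV-B lay below them. Ambient over decreased UV-B gave a log2 ratio of -1.06 (-1.44 to -0.69) in females and 0.04 (-0.26 to 0.35) in males.

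Lhcb4 differed more between the sexes than between the UV-B levels. In females it had 523 CPM (502 to 545) under ambient UV-B and 648 CPM (624 to 672) under decreased UV-B, from 2262 and 2845 counts. In males it had 344 CPM (326.2 to 362) under ambient UV-B and 309 CPM (292 to 325.8) under decreased UV-B, from 1446 and 1322 counts. Both female libraries stood above both male libraries, and neighbours in the order did not overlap. The log2 ratio for UV-B was -0.31 (-0.39 to -0.23) in females and 0.15 (0.05 to 0.26) in males, and the male value had the other sign, -0.04, with TMM factors in place of library totals.

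Lhca4 was the least abundant of the 5 genes and had the widest spread. Only 16 counts, 3.70 CPM (2.11 to 6.01), came from females under ambient UV-B, against 42 counts, 9.56 CPM (6.89 to 12.9), from females under decreased UV-B. Males had 106 counts, 25.2 CPM (20.6 to 30.5), under ambient UV-B and 77 counts, 18.0 CPM (14.2 to 22.5), under decreased UV-B. Both male libraries stood above both female libraries, and the intervals of the male libraries overlapped. The log2 ratio for UV-B was -1.37 (-2.30 to -0.51) in females and 0.49 (0.05 to 0.93) in males.

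Plastocyanin was the most abundant of the 5 genes in females under either UV-B level and in males under ambient UV-B, and it placed 22 among all rows of each female library. It had 672 CPM (648 to 697) in females under ambient UV-B and 687 CPM (663 to 712) in females under decreased UV-B, from 2908 and 3017 counts. Males had 465 CPM (444 to 486) under ambient UV-B and 281 CPM (265 to 297) under decreased UV-B, from 1955 and 1202 counts. The female libraries overlapped each other and stood above both male libraries, which did not overlap. The log2 ratio for UV-B was -0.03 (-0.10 to 0.04) in females and 0.73 (0.62 to 0.83) in males, or 1.66-fold.

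**Figure D1:**
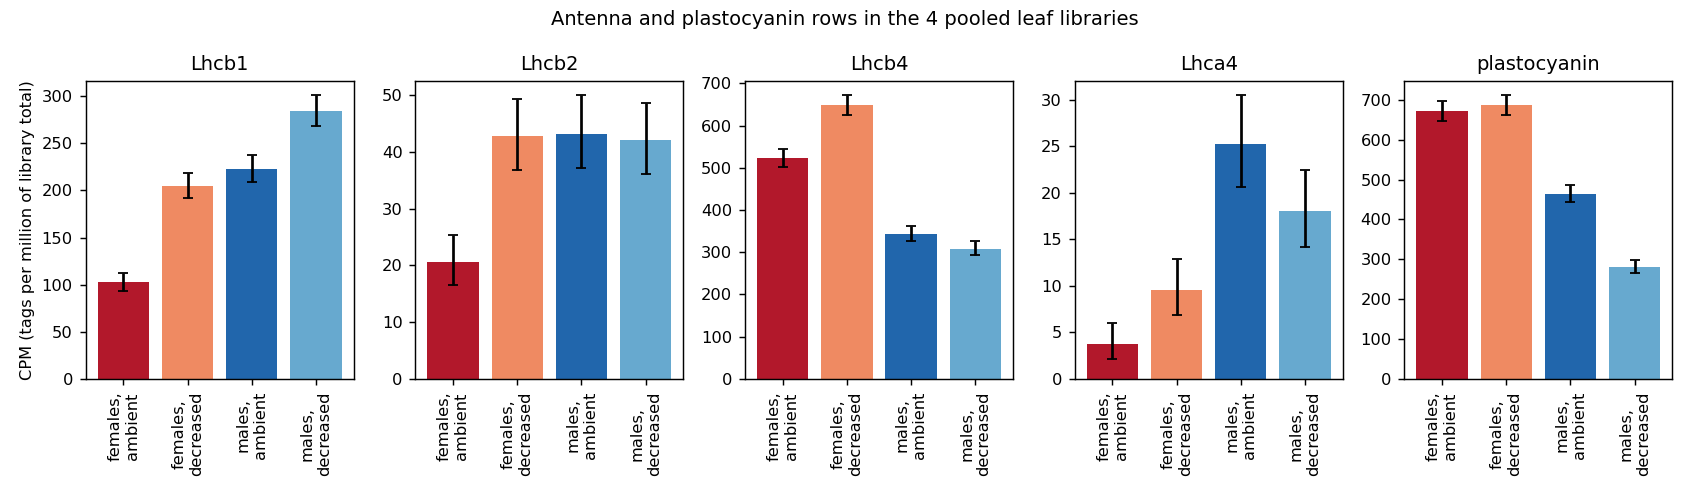
Level of each of the 5 genes in CPM (bars, each panel with its own axis from 0) in the 4 libraries, with exact 95% counting intervals. Lhcb1 and Lhcb2 were lowest in females under ambient UV-B, Lhca4 was lower in both female libraries (3.70 and 9.56 CPM) than in both male libraries (25.2 and 18.0 CPM), and Lhcb4 and plastocyanin were higher in both female libraries.

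For UV-B in females, 3 of the 5 genes (Lhcb1, Lhcb2 and Lhca4) were at least 2-fold lower under ambient UV-B and 0 were at least 2-fold higher. Among the 10741 rows with at least 10 counts over the 4 libraries, 16.4% were at least 2-fold lower and 16.4% higher. Among the 3478 rows with at least 100 counts, 6.96% were lower and 6.79% higher. Nothing is read from the count, since the genes were chosen with these values known. The median of the 5 log2 ratios was -1.0, against 0.01 over rows with at least 100 counts. Lhcb1 stood so near 2-fold that it was just short of it with TMM factors and at -0.98 with DESeq2 size factors, which left 2 genes past it. With the sum of the listed rows as the scale, Lhcb1 was at -0.94 and Lhcb2 just short of 2-fold at -1.0, which left Lhca4 as the only one past it.

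For UV-B in males, 0 of the 5 genes were at least 2-fold higher and 0 at least 2-fold lower. The shares over all rows were 17.4% higher and 15.6% lower at 10 counts or more, and 10.2% and 4.77% at 100 counts or more. The median of the 5 log2 ratios was 0.15, against 0.32 over rows with at least 100 counts. TMM factors shifted every male log2 ratio by -0.20, and with them the values were -0.55 for Lhcb1, -0.16 for Lhcb2, -0.04 for Lhcb4, 0.29 for Lhca4 and 0.53 for plastocyanin. The signs of Lhcb2 and Lhcb4 in males therefore depended on the scale, and those of Lhcb1, Lhca4 and plastocyanin did not under the 4 scales tried. The male Lhca4 interval, which starts at 0.05 with library totals, includes 0 after any of the 3 shifts, the smallest of which was -0.19.

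**Figure D2:**
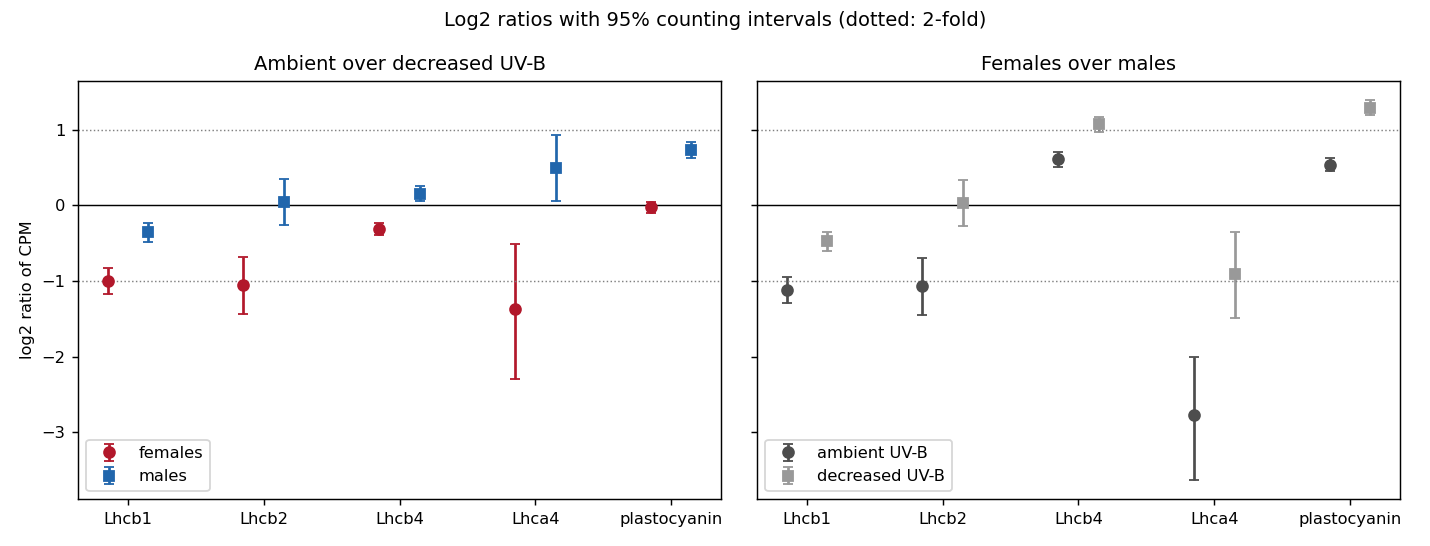
Log2 ratios of CPM for the 5 genes, ambient over decreased UV-B in females and males (left) and females over males under ambient and decreased UV-B (right), with exact 95% counting intervals and dotted lines at 2-fold. In females the antenna values ran from -1.37 for Lhca4 to -0.31 for Lhcb4 while plastocyanin was at -0.03, and Lhcb4 and plastocyanin were the 2 genes above 0 in both comparisons of the sexes.

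Between the sexes the 5 genes differed in direction. Under ambient UV-B, females against males had log2 ratios of -2.77 (-3.63 to -2.0) for Lhca4, -1.12 (-1.29 to -0.95) for Lhcb1 and -1.07 (-1.45 to -0.70) for Lhcb2, so that 3 genes were at least 2-fold lower in females and 0 higher. Of rows with at least 10 counts, 26.7% were at least 2-fold lower and 19.8% higher, and of those with at least 100 counts, 20.8% and 9.14%. Lhcb4, at 0.61 (0.51 to 0.70), and plastocyanin, at 0.53 (0.45 to 0.62), were higher in females. With TMM factors, which raised each of these values by 0.18, 1 gene, Lhca4, was still at least 2-fold lower.

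Under decreased UV-B, 2 of the 5 genes were at least 2-fold higher in females than in males, Lhcb4 with a log2 ratio of 1.07 (0.97 to 1.16) and plastocyanin with 1.29 (1.19 to 1.39). None was as much lower. Among rows with at least 10 counts 20.2% were higher and 23.9% lower, and with at least 100 counts 13.8% and 15.8%. Lhca4 was lower in females at -0.91 (-1.49 to -0.35), as was Lhcb1 at -0.47 (-0.60 to -0.35). Lhcb2 had 42.8 CPM in females and 42.0 CPM in males, a log2 ratio of 0.03 (-0.28 to 0.33).

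The female UV-B ratio was below the male one for each of the 5 genes. The log2 ratio of ratios, females over males, was -1.86 (-2.89 to -0.87) for Lhca4, -1.10 (-1.59 to -0.61) for Lhcb2 and -0.76 (-0.89 to -0.63) for plastocyanin. It was -0.64 (-0.85 to -0.44) for Lhcb1 and -0.46 (-0.60 to -0.33) for Lhcb4. Thus 2 genes were at least 2-fold lower by this measure and 0 higher. Of rows with at least 10 counts 24.9% were lower and 21.6% higher, and of those with at least 100 counts 17.4% and 7.62%. The median over rows with at least 100 counts was itself -0.29, and TMM factors moved all values up by 0.20, which changed no sign among the 5 but put Lhcb2 at -0.90 and left 1 gene, Lhca4, past 2-fold. The count was also 1 with the sum of the listed rows and with size factors.

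Ratios of 2 genes within a library do not depend on how the library is scaled. Lhcb1 had 0.196 counts per count of Lhcb4 (0.176 to 0.217) in females under ambient UV-B and 0.316 (0.293 to 0.341) in females under decreased UV-B. In males the ratio was 0.647 (0.596 to 0.703) under ambient UV-B and 0.922 (0.852 to 0.997) under decreased UV-B. In both sexes, then, Lhcb1 was lower relative to Lhcb4 under ambient UV-B, and it was lower in females than in males at each UV-B level. Plastocyanin had the reverse pattern over UV-B. It had 1.29 counts per count of Lhcb4 (1.22 to 1.36) in females under ambient UV-B against 1.06 (1.01 to 1.12) under decreased UV-B. Males had 1.35 (1.26 to 1.45) under ambient UV-B and 0.909 (0.840 to 0.984) under decreased UV-B. The ratio of Lhcb1 to Lhcb2 varied less. It was 4.98 (3.96 to 6.32) in females under ambient UV-B and 4.79 (4.09 to 5.63) in females under decreased UV-B. Males had 5.14 (4.38 to 6.06) under ambient UV-B and 6.77 (5.79 to 7.96) under decreased UV-B. The interval of males under decreased UV-B overlapped those of both libraries under ambient UV-B and lay above that of females under decreased UV-B.

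By shape over the 4 libraries the 5 genes formed 2 pairs and 1 gene apart. The measure is the Euclidean distance between log2 CPM profiles, each centred on its own mean. Lhcb1 and Lhcb2 lay 0.39 apart and Lhcb4 and plastocyanin 0.46 apart. Lhca4 lay 1.21 from Lhcb1, 1.35 from Lhcb2, 2.76 from Lhcb4 and 2.89 from plastocyanin. Photosystem II antenna genes thus stood in both pairs.

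The table holds 20 rows described as light-harvesting proteins, 13 Lhcb, 6 Lhca and 1 named light harvesting protein 3, and 4 of these are the antenna genes above. The description was informative for 15.8% of rows with at least 10 counts. Antenna genes without such a name are missed, so sums and shares of antenna tags cover these 20 rows only. Together the 20 rows had 6202 CPM in females under ambient UV-B and 7671 CPM in females under decreased UV-B. Males had 8149 CPM under ambient UV-B and 7238 CPM under decreased UV-B. The summed log2 ratio for UV-B was -0.31 (-0.33 to -0.28) in females, and between -0.31 and -0.25 under the 4 scales. In males it was 0.17 (0.15 to 0.19) with library totals and -0.03 with TMM factors, so that its sign rests on the scale.

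Most tags of the 20 named antenna rows came from other rows than the 4 described. These 4 held 10.5% (10.1% to 10.8%) of the tags of the 20 rows in females under ambient UV-B and 11.8% (11.5% to 12.1%) in females under decreased UV-B. The shares were 7.79% (7.51% to 8.08%) in males under ambient UV-B and 9.03% (8.71% to 9.35%) in males under decreased UV-B. Of the other 16 rows, 5 had at least 100 counts over the 4 libraries. The 11 rows below 100 counts, among them the Lhcb3, Lhcb6, Lhcb7, Lhca2, Lhca5 and Lhca6 rows, had at most 15 counts in any library.

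**Figure D3:**
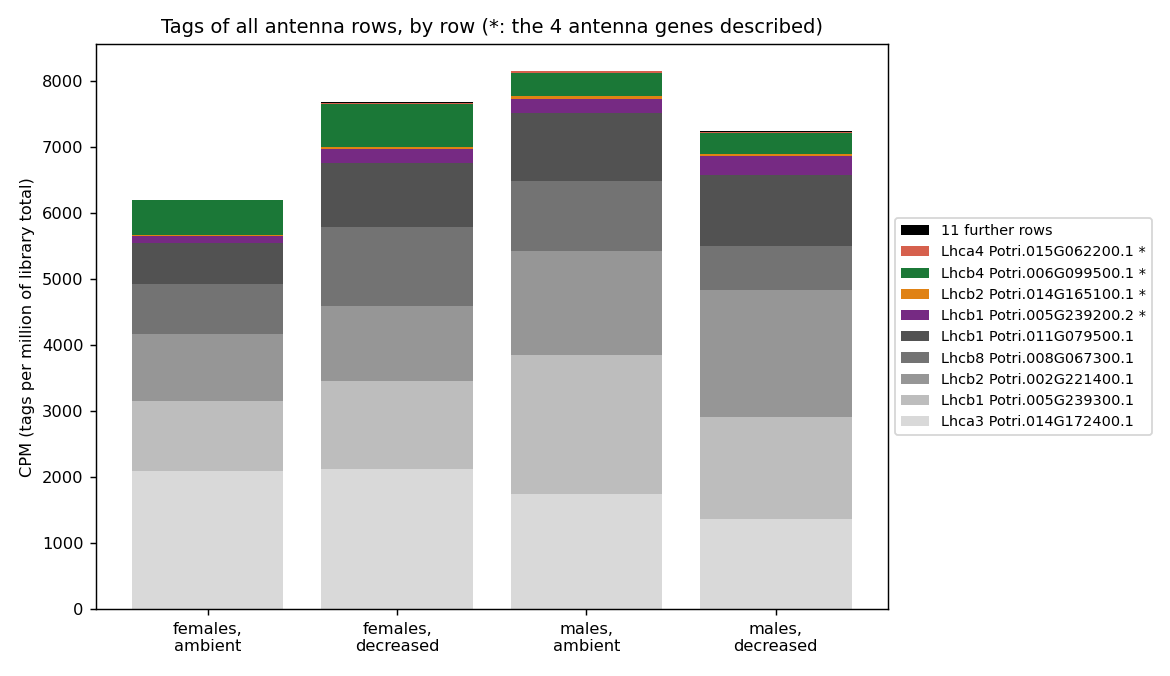
Summed CPM of the 20 antenna rows in each library, stacked by row, with the 5 abundant other rows in grey, the 4 genes described in colour (*) and the 11 rarest rows in black. The stack is lowest in females under ambient UV-B (6202 CPM) and highest in males under ambient UV-B (8149 CPM), and the coloured part is 7.79% to 11.8% of it.

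The 5 abundant other rows did not reach 2-fold for UV-B in either sex. In females all 5 had log2 ratios below 0, from -0.67 to -0.02 with a median of -0.34, although the Lhca3 row nearest to 0 was at 0.04 with the sum of the listed rows as the scale. In males 3 were above 0 and 2 below, from -0.29 to 0.67. Lhcb8 (Potri.008G067300.1), a protein of the Lhcb4 type, had 757 CPM in females under ambient UV-B against 1204 CPM in females under decreased UV-B, a log2 ratio of -0.67 (-0.73 to -0.61). In males it had 1071 CPM under ambient UV-B against 675 CPM under decreased UV-B, a log2 ratio of 0.67 (0.60 to 0.73). Its log2 ratio of ratios, -1.33 (-1.43 to -1.24), was the lowest of these 5 rows, and it was -1.07 with the sum of the listed rows as the scale. Lhca3 (Potri.014G172400.1), a photosystem I antenna protein like Lhca4, was the most abundant antenna row in females, with 2095 CPM under ambient UV-B and 2123 CPM under decreased UV-B. Males had 1750 CPM of it under ambient UV-B and 1363 CPM under decreased UV-B, so that Lhca3 was higher in females while Lhca4 was lower in them.

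Copies with the same name differed in their UV-B ratios. The Lhcb1 gene described above is the smallest of 3 Lhcb1 rows. It held 5.76% (5.25% to 6.31%) of Lhcb1 tags in females under ambient UV-B against 8.19% (7.68% to 8.71%) in females under decreased UV-B. Its share in males was 6.67% (6.26% to 7.09%) under ambient UV-B and 9.81% (9.30% to 10.3%) under decreased UV-B. Its share was thus lower under ambient UV-B in both sexes. The largest Lhcb1 row, Potri.005G239300.1, had log2 ratios of -0.34 (-0.39 to -0.28) in females and 0.44 (0.39 to 0.48) in males, and Potri.011G079500.1 had -0.64 (-0.71 to -0.57) in females and -0.07 (-0.13 to -0.01) in males. The 3 rows in sum had a log2 ratio of -0.49 (-0.54 to -0.45) in females, smaller in size than the -1.0 of the described row. In males the sum was at 0.20 (0.17 to 0.24) with library totals and at 0.0 with TMM factors. The described row was at -0.36 in males with library totals and at -0.55 with TMM factors.

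The Lhcb2 copies also differed. The described gene held 1.98% (1.59% to 2.43%) of Lhcb2 tags in females under ambient UV-B and 3.65% (3.15% to 4.2%) in females under decreased UV-B, with 2.68% (2.31% to 3.09%) in males under ambient UV-B and 2.15% (1.85% to 2.48%) in males under decreased UV-B. The other row, Potri.002G221400.1, held the rest and had log2 ratios for UV-B of -0.15 (-0.21 to -0.09) in females and -0.29 (-0.33 to -0.24) in males. Both rows in sum were at -0.18 (-0.23 to -0.12) in females, against -1.06 for the described row. In males the sum was at -0.28 (-0.32 to -0.23), against 0.04 for the described row, both with library totals. The treatment of tags that match several near-identical copies is not given in the sources used here. The split between rows of 1 name is therefore uncertain.

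**Figure D4:**
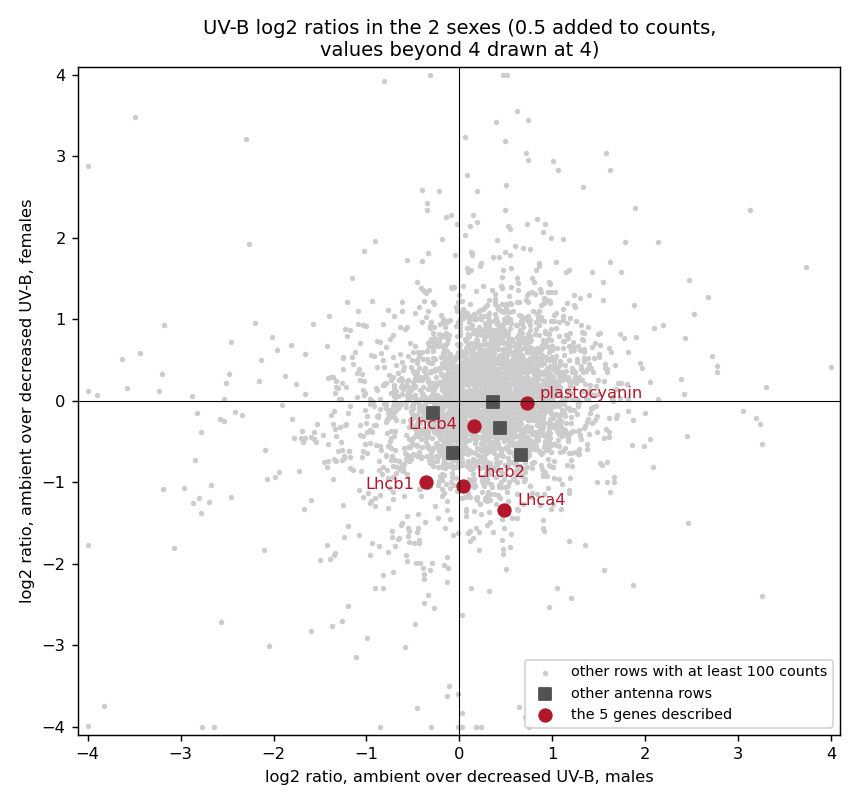
Log2 ratio of ambient over decreased UV-B in males (x axis) and females (y axis) for rows with at least 100 counts (light grey), with the 5 genes in red and the 5 other abundant antenna rows as dark squares. Lhcb1, Lhcb2 and Lhca4 lie near or below -1 on the female axis, while the other antenna points and plastocyanin lie below 0 there. Lhca3, at -0.02, and plastocyanin, at -0.03, were above 0 with the sum of the listed rows as the scale.

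Other genes of photosynthesis were taken from word lists, and few rows carried a name. The electron carrier list held plastocyanin alone. Photosystem II had 7 rows with at least 10 counts, all named for proteins that plastid genomes encode in plants, 5 of them with a best hit marked as a plastid record. For UV-B in females 2 were at least 2-fold higher and 0 lower, beside 16.4% higher and 16.4% lower over all rows with at least 10 counts. These 2 rows had 2 counts under ambient UV-B against 0 under decreased UV-B, and 8 against 3. In males 1 was higher and 2 lower, beside 17.4% and 15.6%. The higher row had 25 counts against 11, and the lower rows had 3 against 10 and 9 against 25. Without the 5 marked rows 0 passed 2-fold in either sex, and likewise 0 among rows with at least 100 counts. Photosystem I had 5 rows, also named for plastid-encoded proteins, 4 of them so marked, and 0 passed 2-fold in females. In males 1 was higher and 0 lower with library totals, and 0 higher and 1 lower with TMM factors. The 3 chloroplast ATP synthase rows, all with marked hits, had 0 past 2-fold in females and 1 lower in males. The 3 carbon fixation rows are those of the leaf list, 2 of them for the plastid-encoded large subunit of rubisco. In females 0 passed 2-fold. In males both rubisco rows were lower, and the row of an enzyme that methylates the large subunit had 4 counts under ambient UV-B against 0 under decreased UV-B. PsbE (Potri.013G141000.1), a subunit of the cytochrome of photosystem II, had the highest mean CPM in these lists after plastocyanin. It had 406 CPM in females under ambient UV-B against 308 CPM under decreased UV-B, and 362 CPM in males under ambient UV-B against 492 CPM under decreased UV-B. Its UV-B log2 ratios were 0.40 (0.29 to 0.50) in females and -0.44 (-0.54 to -0.34) in males. Lhca4 had the other sign in each sex, but its male interval includes 0 under the 3 scales other than library totals. The cDNA was made on oligo-dT beads. Whether tags of rows named for plastid-encoded proteins came from plastid transcripts was not tested.

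The levels of the 2 chlorophyll synthesis genes ran in the library order of Lhcb4, but not all neighbours stood apart. Magnesium-protoporphyrin O-methyltransferase (Potri.012G106600.2), an enzyme of the magnesium branch, had 62.7 CPM in females under ambient UV-B and 78.5 CPM in females under decreased UV-B, with 41.6 CPM in males under ambient UV-B and 30.8 CPM in males under decreased UV-B. Coproporphyrinogen III oxidase (Potri.011G023900.1), an earlier step, had 46.5 CPM in females under ambient UV-B and 57.1 CPM in females under decreased UV-B, and 44.9 and 32.5 CPM in males under ambient and decreased UV-B. The interval of the second gene in females under ambient UV-B, 40.3 to 53.4 CPM, overlapped those of females under decreased UV-B (50.3 to 64.7) and of males under ambient UV-B (38.7 to 51.8). Magnesium-protoporphyrin O-methyltransferase (Potri.012G106600.2) had 55.4 to 70.6 CPM in females under ambient UV-B, which overlapped barely with 70.5 to 87.3 CPM in females under decreased UV-B. Its male libraries overlapped too, with 35.7 to 48.2 CPM under ambient UV-B and 25.8 to 36.6 CPM under decreased UV-B. The UV-B log2 ratio of that gene was -0.33 (-0.56 to -0.09) in females and 0.43 (0.10 to 0.77) in males. For coproporphyrinogen III oxidase it was -0.30 (-0.57 to -0.02) in females and 0.47 (0.15 to 0.80) in males. Neither passed 2-fold for UV-B.

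Rows of plastid photoprotection and light signalling were sparse. Only 1 of 4 photoprotection rows and 1 of 2 carotenoid rows had at least 10 counts, and 0 of these passed 2-fold for UV-B. Of 4 light signalling rows with 10 counts, 1 was at least 2-fold higher in males, beside 17.4% of all rows with at least 10 counts. It was a COP1-like gene (Potri.015G143200.1) with 11 counts in males under ambient UV-B against 5 in males under decreased UV-B. Its male log2 ratio, 1.16 (-0.48 to 3.04), had an interval that included 0. A second COP1-like row (Potri.012G140200.1) had 0 counts in both male libraries. In females it had 18 counts under ambient UV-B and 23 under decreased UV-B. The pheophorbide A oxygenase row (Potri.003G219000.1), for a step of chlorophyll breakdown, had 9.25 CPM in females under ambient UV-B against 7.06 CPM under decreased UV-B, and 2.38 CPM in males under ambient UV-B against 5.84 CPM under decreased UV-B. The male log2 ratio, from 10 and 25 counts, was past 2-fold at -1.3, but its interval (-2.52 to -0.19) included smaller changes. Of all rows with at least 10 counts 15.6% were at least 2-fold lower in males. Among 4 rows for peroxide and superoxide removal, 2 were at least 2-fold lower in females under ambient UV-B and 0 higher, beside 16.4% of all rows each way. Both belong to 1 locus of 2-cys peroxiredoxin, a plastid peroxide-reducing enzyme, and the rarer (Potri.016G072100.4) had 0 counts in females under ambient UV-B against 6 under decreased UV-B. The main row (Potri.016G072100.1) had 18.0 CPM in females under ambient UV-B and 48.9 CPM in females under decreased UV-B, with 84.9 CPM in males under ambient UV-B and 99.2 CPM in males under decreased UV-B. The more abundant type II peroxiredoxin (Potri.018G083500.1), whose description names no cell compartment, differed the other way. It had 229.6 CPM (216 to 244) in females under ambient UV-B and 158 CPM (146 to 170) in females under decreased UV-B, with 124 CPM (114 to 135) in males under ambient UV-B and 112 CPM (102 to 122) in males under decreased UV-B. Its log2 ratio for UV-B was 0.54 (0.40 to 0.68) in females and 0.15 (-0.03 to 0.33) in males. The last of the 4 rows, type IIF peroxiredoxin (Potri.019G024000.1), had 0.27 (-0.07 to 0.60) in females and 0.60 (0.30 to 0.90) in males.

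Among 583 abundant rows (at least 100 counts) that carry an informative description, those nearest in profile were sought over the 4 libraries, which are few points and share their depth between rows. The nearest to the mean profile of the 4 antenna genes were a GRAS family transcription factor (Potri.007G029200.1, distance 0.14), a gibberellin 3-oxidase (Potri.001G176600.1, 0.23), a tyrosyl-tRNA synthetase (Potri.014G140400.1, 0.23), an F-box family protein (Potri.005G170000.1, 0.23) and the Lhcb1 row Potri.011G079500.1 (0.27). Counting error of the distances was not estimated, so the order of these rows is uncertain. In females under ambient UV-B the tyrosyl-tRNA synthetase had only 3.70 CPM and the F-box row 4.39 CPM. The 4 antenna genes themselves differ in shape, so their mean stands for none of them closely. Nearest to plastocyanin were the glutathione transferase GSTF1 (Potri.002G015100.1, distance 0.11), a DNA binding protein (Potri.002G143300.1, 0.13), a structural molecule (Potri.001G309300.1, 0.16), histone 2 (Potri.009G028000.1, 0.22) and a SANT domain protein (Potri.002G068400.1, 0.22). GSTF1 had 330 CPM in females under ambient UV-B and 345 CPM in females under decreased UV-B, with 234 CPM in males under ambient UV-B and 129 CPM in males under decreased UV-B.

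The deposited gene ontology terms place all 5 genes in the chloroplast thylakoid and in the generation of precursor metabolites and energy. Among rows with at least 10 counts, 181 (1.69%) had the first term and 66 the second. Tetrapyrrole binding was given to the 4 antenna genes, among 28 rows with at least 10 counts, and transition metal ion binding to plastocyanin. Response to red or far red light was given to Lhcb2 and Lhcb4, which lay 1.46 apart in profile.

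Rows of the other marker lists also differed between the libraries, and their tissue of origin was not tested. The wood and vessel list of 23 laccase, cellulose synthase and fasciclin rows, 15 of them with at least 10 counts, summed to 21.5 CPM in females under ambient UV-B and 77.9 CPM in females under decreased UV-B. Males had 75.8 CPM under ambient UV-B and 111 CPM under decreased UV-B. Of its rows, 14 were above 0 in females under ambient UV-B and 18 in females under decreased UV-B, with 13 in males under ambient UV-B and 18 in males under decreased UV-B. This sum had the library order of Lhcb1, lowest in females under ambient UV-B, apart from the middle pair, and its part in the antenna values was not tested. The leaf list summed to 90.9 CPM in females under ambient UV-B and 145 CPM in females under decreased UV-B, against 30.2 CPM in males under ambient UV-B and 67.5 CPM in males under decreased UV-B. Most of it came from 1 rubisco row, Potri.T005800.1. That row gave 368 of 393 counts in females under ambient UV-B and 607 of 639 under decreased UV-B. In males it gave 102 of 127 counts under ambient UV-B and 246 of 289 under decreased UV-B. The pollen and flower list of 12 rows, mostly MADS-box factors, summed to 162 and 99.03 CPM in females under ambient and decreased UV-B and to 134 and 88.7 CPM in males under ambient and decreased UV-B. Only 1 of its rows had at least 100 counts over the 4 libraries. These sums were not tested as measures of cell types. In pooled leaf RNA, fewer cells of a type and less RNA per cell cannot be told apart.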

How the data were processed

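Per the labels' protocols, cDNA made on oligo-dT beads was cut with NlaIII and MmeI, which leaves a 17 bp tag, and tags were counted with the Illumina pipeline. The same protocols name 3 biological replicates of the extraction, but 1 library per group is listed. Per the file headers, the authors deposited raw tag counts per row with each library total in the column header. They also deposited values headed TPM, which are CPM on the header total: recomputed values lay within 0.005 for 100% of them. Tag assignment and genome build: not given in the sources used here. No coordinates are printed.

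Counts were divided by the header totals. Rows with at least 10 counts over the 4 libraries (10741) and with at least 100 (3478) served as background. Level intervals are exact Poisson, ratio intervals exact conditional binomial, ratios of ratios conditional noncentral hypergeometric (scipy 1.17.1), and shares exact Clopper-Pearson. Medians, profile distances and counts by the ratio of ratios use 0.5 added to each count. No p-value was computed, and no test can separate a condition from its single pool. The scripts were tested on simulated counts. Alternatives were the sum of listed rows, TMM factors (edgeR 4.0.16), size factors (DESeq2 1.42.0), summing rows of a locus, other count minimums and 1.5-fold.

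The genes and lists were chosen with earlier results of these data known. Lists are word patterns on the best-hit description, which was informative for 15.8% of rows with at least 10 counts. The rule for other named genes took up to 3 rows per list by mean CPM, up to 2 per direction past 2-fold with at least 50 counts, and the 5 nearest profiles. The Lhcb8 row and the rarer 2-cys peroxiredoxin row were named after their values were seen.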

Additional observations from a re-analysis of the deposited data

Results flagged for a closer look

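For 7 of 10 abundant rows, the 9 antenna rows with at least 100 counts and plastocyanin, the female and the male UV-B ratios lay on opposite sides of 0 with library totals as the scale. Of all 3478 rows with at least 100 counts, 44.2% did so on the same scale. Nothing is read from the 7 of 10, since the 5 genes described are among these rows and were chosen with their values known. These differences between the sexes were not tested, since each group has 1 library. The log2 ratio of ratios, females over males, was -1.86 for Lhca4 (Potri.015G062200.1), -1.33 for Lhcb8 (Potri.008G067300.1), -1.10 for Lhcb2 (Potri.014G165100.1) and -0.77 for the largest Lhcb1 row (Potri.005G239300.1). It was -0.76 for plastocyanin, -0.46 for Lhcb4 and -0.38 for Lhca3 (Potri.014G172400.1).

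In 3 of the 7 rows the counting interval of one ratio included 0, namely Lhca3 in females (-0.06 to 0.02), plastocyanin in females (-0.10 to 0.04) and Lhcb2 in males (-0.26 to 0.35). The signs of Lhca4, Lhcb8 and the Lhcb1 row were the same under the 4 scales tried, but the male Lhca4 ratio was 0.28 or 0.29 under the other 3, where its interval, 0.05 to 0.93 with totals, includes 0 after the shift. The male ratios of Lhcb2 and Lhcb4 were below 0 under the other 3 scales, and the female ratios of plastocyanin and Lhca3 were above 0 with the sum of the listed rows.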

How the results depend on the processing

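The scale of a library moved values of the 5 genes. Against library totals, the sum of the listed rows, TMM factors and DESeq2 size factors shifted the male UV-B log2 ratios of all rows by -0.21, -0.20 and -0.19. The median of the 5 genes in males, 0.15 with totals, was -0.05, -0.04 and -0.04 under these 3. The median of the ratio of ratios, -0.76 with totals, was -0.49, -0.56 and -0.55. The number of the 5 genes at least 2-fold lower was 1 in place of 3 for UV-B in females with the sum of the listed rows (2 with TMM factors and with size factors), 1 in place of 3 for sex under ambient UV-B with each of the 3, and 1 in place of 2 for the ratio of ratios with each of the 3. With the sum of the listed rows 38.7% of rows past 2-fold in males were higher, with TMM factors 38.8% and with size factors 39.7%, against 52.7% with totals. For sex under ambient UV-B the share was 53.3% with the sum of the listed rows, against 42.6%. Summing rows of a locus moved none of the 25 values of the 5 genes.

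Counts of rows past 2-fold with at least 100 counts were 236 higher and 242 lower for UV-B in females, 356 and 166 in males, 318 and 723 for sex under ambient UV-B, and 480 and 549 for sex under decreased UV-B. With no minimum they were 3821 and 4223, 3082 and 4398, 4795 and 4363, and 4645 and 4948, in the same order of comparisons. At 1.5-fold they were 2754 and 2847, 3303 and 2507, 2981 and 3930, and 3319 and 3509. The antenna list had 16 rows with at least 10 counts and 9 with at least 100. At 100 counts 3 of its rows, Lhcb1, Lhcb2 and Lhca4 of the genes described, were at least 2-fold lower for UV-B in females. At 10 counts 5 rows were lower. Of all rows 6.96% were lower at 100 counts and 16.4% at 10. In males 0 antenna rows were higher and 0 lower at 100 counts, against 1 and 5 at 10. Of all rows 10.2% were higher and 4.77% lower at 100 counts, and 17.4% and 15.6% at 10. For sex under ambient UV-B 0 antenna rows were higher and 3 lower, against 4 and 6. Of all rows 9.14% were higher and 20.8% lower at 100 counts, and 19.8% and 26.7% at 10. Under decreased UV-B 1 antenna row was higher and 0 lower, against 2 and 1. Of all rows 13.8% were higher and 15.8% lower at 100 counts, and 20.2% and 23.9% at 10. The minimum itself sets these counts, as fewer rows enter. Nothing is read from them, since the genes described were chosen with their values known.

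No paired analysis was possible because each group has 1 library and the labels give no replicate numbers. Leaving out a library was not run for the same reason. Depth limited Lhca4 most: 16 counts in females under ambient UV-B gave an interval of 2.11 to 6.01 CPM.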
